A study of Mus musculus with 6 samples.

Results

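The potassium channel genes of mouse aorta were taken as the protein-coding genes of the deposited table whose symbol begins with Kcn, which gave 93 members, without Kcnc4, among 55487 listed genes. Of these, 45 had a count over 10 in all 3 libraries of at least one group and were tested, and 48 lay under this filter. Expression was measured by bulk RNA-seq in 6 aortas of male C57BL/6 mice at baseline, 3 from controls and 3 from mice with inducible smooth muscle-specific deletion of Prdm16 (iSM KO). All 6 mice carried the tamoxifen-inducible Myh11-CreERT2 transgene and received tamoxifen, and the groups differed by design in the Prdm16 allele, which was wild type (W/W) in the controls and floxed around exon 9 (F/F) in the iSM KO mice. Injections started at 8 weeks of age at 1 mg per mouse and day over 10 days, and aortas were collected 60 days after a tamoxifen-free interval of 2 weeks. Cre was driven by the Myh11 promoter, which is active in smooth muscle cells, from a transgene on the Y chromosome, so that females were not included. The adventitia was removed by dissection, but the RNA was that of whole tissue, in which fewer cells of a type and less RNA per cell cannot be told apart.

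Potassium channels let K+ leave the cell and hold the membrane potential of vascular smooth muscle cells (VSMCs) negative. When they open, the cell hyperpolarizes, voltage-gated calcium channels close and the artery relaxes. When they close, calcium enters and tone rises. VSMCs use voltage-gated channels of the Kcna and Kcnq families, among others, the large-conductance calcium-activated (BK) channel, ATP-sensitive and other inward rectifiers, and tandem-pore channels that carry background current. Pore-forming alpha subunits select K+ through a short filter loop, and auxiliary subunits change how the pore gates or how much of it reaches the membrane. The members fall into 39 voltage-gated alpha subunits, 13 auxiliary subunits and regulators of voltage-gated channels, 15 inward rectifiers, 14 tandem-pore channels and 12 calcium- or sodium-activated channel subunits.

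Of the 45 members tested, 8 changed in iSM KO aortas, which was 17.8% of them, while 7.56% of all 16565 genes tested passed the same threshold. The threshold was a false discovery rate (FDR) under 0.05, adjusted over all genes tested, in edgeR's quasi-likelihood test. Kcnq3, Kcnk1, Kcnk6, Kcna2 and Kcne4 were lower, and Kcnf1, Kcnj12 and Kcna5 were higher. For genes lower in iSM KO aortas the shares were 11.1% of members and 3.30% of all genes tested, and for higher genes they were 6.67% and 4.26%. A fold change over 2 together with the FDR was reached by 4 of the 45 (8.89%), namely Kcnq3, Kcnk1, Kcnk6 and Kcnf1, and by 2.78% of all genes tested. The abundant channel genes of arterial muscle, Kcnma1, Kcnmb1, Kcnab1, Kcnh2 and Kcnj8, did not pass the threshold.

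Most pore-forming members share a run of codons at the selectivity filter, and it is printed here for 4 of the changed genes as a stretch they have in common with most of the pore-forming members. A match to ACNNTNGGNTNNGG, the codon pattern of the filter signature, searched in frame on the coding strand alone, was found in the longest coding sequence of 63 of the 93 members (67.7%) and of 187 of 21817 protein-coding genes (0.857%). It was present in 14 of 15 inward rectifiers, 32 of 39 voltage-gated alpha subunits, 12 of 14 tandem-pore channels and 5 of 12 calcium- or sodium-activated subunits, and in 0 of 13 auxiliary members. In 11 tandem-pore genes it occurred more than once, as each of these subunits has a pair of pore loops. Kcna2, Kcna5, Kcnf1 and Kcnk6 are given below with the match in capitals and 15 bases on either side, on the coding strand, from GRCm38 and the GENCODE M21 annotation. Kcnk1 and Kcne4 had no match to these letters.
Kcna2 (chr3:107105209-107105252, plus strand, within 1 exon): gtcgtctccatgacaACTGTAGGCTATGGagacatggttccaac
Kcna5 (chr6:126533731-126533774, minus strand, within 1 exon): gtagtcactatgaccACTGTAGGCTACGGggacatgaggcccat
Kcnf1 (chr12:17175047-17175090, minus strand, within 1 exon): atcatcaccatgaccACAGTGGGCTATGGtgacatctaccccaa
Kcnk6 (chr7:29225846-29232183, minus strand, across 2 coding exons): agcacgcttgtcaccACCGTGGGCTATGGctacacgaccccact

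The libraries held 24911609 to 40460467 counts, with the lowest total in Control 3, and 20841 to 36519 of these fell on the 93 members. Levels are given in CPM, counts relative to the library total after scaling by edgeR's TMM method. As a check of the labels, the whole Prdm16 gene stood at 183, 223 and 179 CPM in Controls 1 to 3 and at 93.8, 113 and 79.8 CPM in iSM KO 1 to 3. It fell by 1.03 on the log2 scale (SE 0.14, FDR = 0.00265, edgeR). The counts cover the whole gene, so exon 9 could not be read separately. The smooth muscle markers summed to 22497 to 27516 CPM in controls and 24268 to 26745 CPM in iSM KO aortas, and 2 of 8, Des and Myocd, were higher. Cell types other than smooth muscle differed between libraries. The summed CPM of 8 endothelial markers was 866, 1006 and 493 in Controls 1 to 3 and 255, 460 and 775 in iSM KO 1 to 3, with 0 of 8 past the FDR in edgeR, DESeq2 or limma-voom and 1 at an unadjusted p under 0.05. Adipocyte markers summed to 32.6 to 213 CPM in controls and 9.28 to 15.4 CPM in iSM KO aortas. Of these 8, 7 were tested, and edgeR called 6 lower, DESeq2 7 and limma-voom 1. Macrophage markers summed to 33.0 to 37.9 CPM in controls and to 13.2, 13.2 and 38.9 CPM in iSM KO 1 to 3, with 0 of 8 past the FDR in edgeR or limma-voom, 1 in DESeq2 and 2 at an unadjusted p under 0.05 in edgeR. Markers of adventitial fibroblasts summed to 695 to 996 CPM in controls and 578 to 710 CPM in iSM KO aortas. Of these 8, edgeR and limma-voom called 0 and DESeq2 called 2, and all 8 had an unadjusted p under 0.05 in edgeR with lower values in iSM KO aortas. None of these markers was at 0 in every library. Their part in the channel results was not tested.

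Levels of different genes were compared per kilobase (kb) of the longest annotated transcript. In control aortas the order was led by Kcnmb1, the beta-1 subunit of the BK channel, at 35.1 ± 4.43 CPM per kb (SD, n = 3), Kcnh2, a voltage-gated alpha subunit known from cardiac repolarization, at 33.7 ± 3.02, and Kcnab1, a cytoplasmic beta subunit of Kcna channels, at 27.6 ± 1.22. Next came Kcnj8, the pore of the vascular ATP-sensitive channel, at 17.4 ± 3.53, and Kcnma1, the BK pore, at 11.9 ± 0.454. The top 10 members held 83.8% of the summed level of the 45 tested members, and 23 members lay above 1 CPM per kb. Of the 44 neighbouring pairs in this order, 38 had control ranges that overlapped. The 6 steps without overlap lay between Kcnh2 and Kcnab1, Kcnab1 and Kcnj8, Kcnj8 and Kcnma1, Kcne4 and Kcnd3, Kcnq5 and Kcnn4, and Kcnj4 and Kcnc2. Kcne4 ranked 8 among the 45 in controls, whereas Kcnq3 ranked 23, Kcnk1 ranked 26 and Kcnf1 ranked 30. The largest of the called changes thus concerned genes in the middle of the order or below it.

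**Figure D1:**
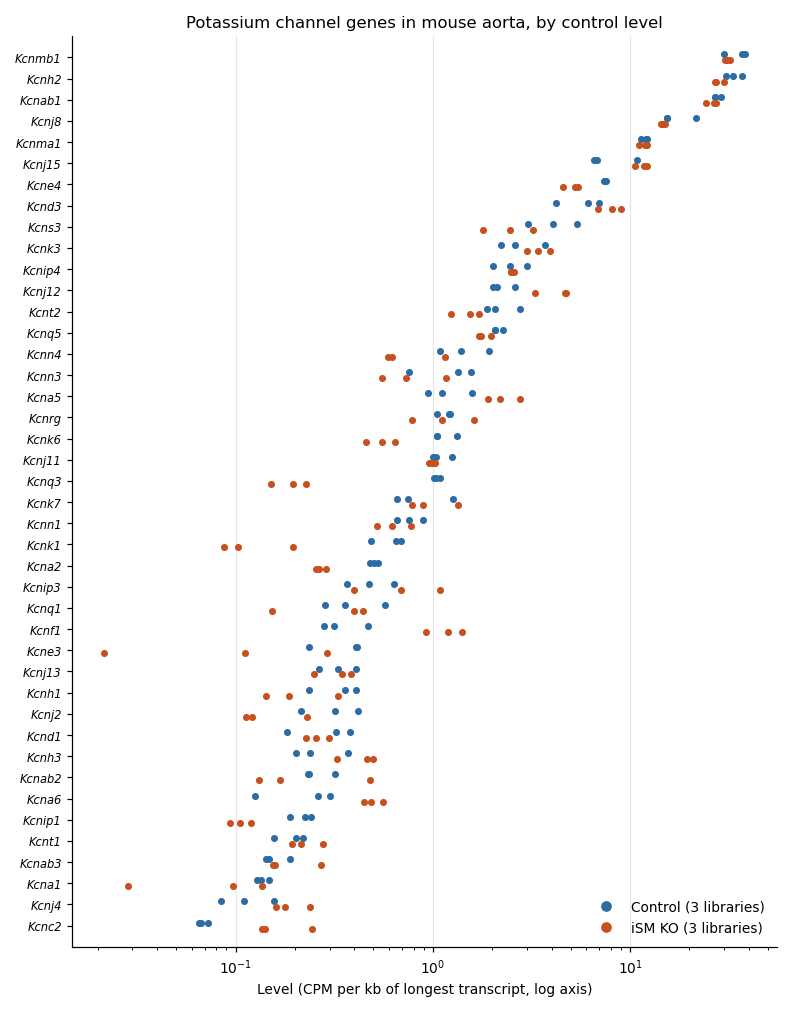
Level of 42 of the 45 tested potassium channel genes in each library, in CPM per kb of the longest transcript on a log axis, ordered by the control mean (blue, 3 Control libraries; orange, 3 iSM KO libraries). Kcnmb1, Kcnh2 and Kcnab1 lead the order in both groups, and the points of Kcnq3, Kcnk1 and Kcnf1 in the 2 groups lie apart.

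Summed over the 45 tested members, the level was 194 ± 8.48 CPM per kb in controls and 180 ± 2.01 in iSM KO aortas (SD, n = 3), and the groups did not overlap. The lowest control library stood at 184 and the highest iSM KO library at 181. By class, the sum over tested members was 65.8 ± 6.75 and 59.6 ± 1.51 for voltage-gated alpha subunits, 40.2 ± 1.80 and 36.4 ± 1.04 for auxiliary members, 52.9 ± 5.10 and 46.8 ± 0.517 for calcium- or sodium-activated subunits, 29.6 ± 3.09 and 32.1 ± 0.427 for inward rectifiers and 5.48 ± 0.953 and 5.13 ± 0.598 for tandem-pore channels, in controls and iSM KO aortas. Calls fell on 4 of 18 voltage-gated alpha subunits tested (2 higher, 2 lower), 1 of 9 auxiliary members, 1 of 7 inward rectifiers, 2 of 4 tandem-pore channels and 0 of 7 calcium- or sodium-activated subunits, beside 7.56% of all genes tested. In this last class 2 members had an unadjusted p under 0.05 in edgeR (22.1% of all genes tested). DESeq2 passed 2 of the class, Kcnn4 and Kcnt2 (10.3% of all genes tested), and limma-voom called 0 (7.51%). The classes were not tested against each other. The sums carry no test, since members were chosen with results of these data known. The median log2 fold change of the 45 members was -0.14, beside -0.01 over all genes tested, and 27 of 45 were negative. For 17 members the groups did not overlap, 11 of them lower and 6 higher, which was 37.8% of members and 27.9% of all genes tested. Of the 17, Kcnk1 (lower) had passed the count filter through the controls alone, and Kcnc2 and Kcnj4 (higher) through the iSM KO libraries alone.

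Kcnq3 had the smallest FDR of the 45 members. It encodes a voltage-gated subunit that contributes to the M-current of neurons. Kcnq3 (ENSMUSG00000056258, chr15:65986387-66286642, minus strand) stood at 12.2, 12.02 and 12.9 CPM in Controls 1 to 3 and at 1.79, 2.69 and 2.30 CPM in iSM KO 1 to 3. The groups lay far apart, and the spread within each was under 1 CPM from lowest to highest library. The level was 5.48-fold lower in iSM KO aortas, with a log2 fold change of -2.45 (SE 0.16, 95% interval -2.82 to -2.09, FDR = 7.45e-05, edgeR). In the 6 fits without one library it ranged from -2.60 to -2.31, past the FDR each time. In order of level, Kcnq3 moved from rank 23 in controls to rank 38.

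Kcnq5 and Kcnq1 did not pass the FDR. Kcnq5, a Kcnq channel of VSMCs, stood at 15.8, 14.4 and 14.4 CPM and at 13.7, 12.2 and 11.96 CPM (log2 fold change -0.23, 95% interval -0.46 to -0.01, FDR = 0.216). Every iSM KO library was below every control library, but the gap was small beside the spread. Kcnq1, the cardiac and epithelial member, stood at 0.866, 1.74 and 1.09 CPM and at 0.466, 1.204 and 1.34 CPM (log2 fold change -0.32, FDR = 0.706). Its reads may be shared with Kcnq1ot1, an antisense RNA within it at 92.0 to 103 CPM in controls, because the strand setting of the counting is not given in the sources used here.

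Within the Kcna family of delayed rectifiers, Kcna2 was lower and Kcna5 was higher. Kcna2 (ENSMUSG00000040724, chr3:107101146-107115005, plus strand) stood at 5.58, 5.85 and 6.08 CPM in Controls 1 to 3 and at 3.31, 2.95 and 3.07 CPM in iSM KO 1 to 3. Both groups were tight and did not overlap, and the log2 fold change was -0.91 (SE 0.14, 95% interval -1.23 to -0.58, FDR = 0.00639, edgeR). It passed the FDR in all 6 fits without one library. Kcna5 (ENSMUSG00000045534, chr6:126532551-126535412, minus strand) stood at 2.72, 4.502 and 3.19 CPM in controls and at 5.42, 7.88 and 6.27 CPM in iSM KO aortas. Control 2 and iSM KO 2 were the high libraries of their groups, and the groups did not overlap. Its log2 fold change was 0.90 (SE 0.22, 95% interval 0.40 to 1.41, FDR = 0.0425, edgeR). This was the least firm of the 8 calls, since the FDR was past 0.05 in 1 of 6 fits without one library, at 0.0182 without Control 2, and was 0.116 without Control 1, 0.127 without Control 3, 0.0607 without iSM KO 1, 0.182 without iSM KO 2 and 0.0784 without iSM KO 3.

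Kcna6, a further Kcna pore, stood at 1.52, 0.729 and 1.76 CPM in controls and 2.82, 3.27 and 2.60 CPM in iSM KO aortas. Its log2 fold change of 1.14 (95% interval 0.43 to 1.85) missed the threshold in edgeR (FDR = 0.0629) and passed it in DESeq2 (FDR = 0.00984). Kcna1 stood at 0.520 to 0.597 CPM in controls and 0.115 to 0.548 CPM in iSM KO aortas (FDR = 0.473). Per kb, Kcna5 made up 57.6 ± 8.62% of the Kcna level in controls and 72.4 ± 3.98% in iSM KO aortas, while Kcna2 made up 24.4 ± 2.39% and 8.72 ± 1.64% (SD, n = 3). The summed level of the tested Kcna genes was 2.08 ± 0.246 CPM per kb in controls and 3.13 ± 0.425 in iSM KO aortas, with every iSM KO library above every control library. These shares and sums depend on the lengths used, 11582 bases for Kcna2 and 2862 bases for Kcna5. In CPM, Kcna2 was above Kcna5 in controls (mean 5.84 and 3.47) and below it in iSM KO aortas (3.11 and 6.52).

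**Figure D2:**
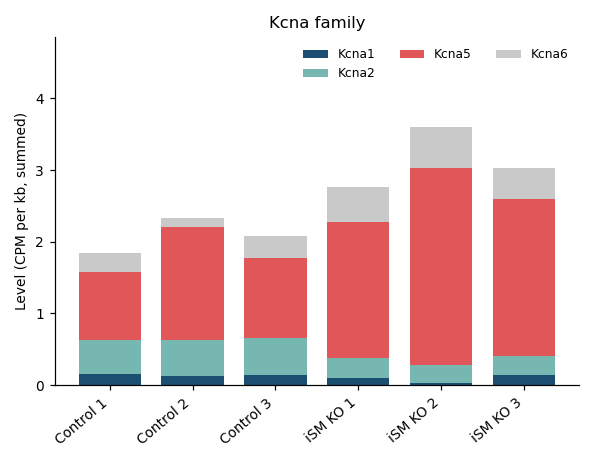
Summed level of the tested Kcna pore genes in each library, in CPM per kb, stacked by gene. The Kcna2 segment fills 24.4% of the control bars and 8.72% of the iSM KO bars on average, and the Kcna5 segment is taller in the iSM KO bars.

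Kcnf1 showed the largest increase among the called members. It encodes an electrically silent alpha subunit, which forms no channel alone and joins other voltage-gated pores. Kcnf1 (ENSMUSG00000051726, chr12:17172100-17176888, minus strand) stood at 1.34, 2.24 and 1.51 CPM in Controls 1 to 3 and at 6.75, 4.41 and 5.72 CPM in iSM KO 1 to 3. The lowest iSM KO library was above the highest control. In iSM KO aortas it was 3.29-fold higher, with a log2 fold change of 1.72 (SE 0.25, 95% interval 1.16 to 2.28, FDR = 0.00406, edgeR), and without each library in turn the log2 fold change lay between 1.56 and 1.99, past the FDR each time. Kcns3, another silent subunit, stood at 15.8, 8.90 and 11.99 CPM in controls and 5.28, 7.22 and 9.47 CPM in iSM KO aortas (log2 fold change -0.74, FDR = 0.118).

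The remaining voltage-gated pores were not called. Kcnh2 stood at 141, 155 and 130 CPM in controls and 115, 126 and 114 CPM in iSM KO aortas, without overlap (log2 fold change -0.26, 95% interval -0.47 to -0.06, FDR = 0.117). Kcnd3, a transient outward channel, stood at 49.8, 43.8 and 30.3 CPM and at 64.7, 58.4 and 49.1 CPM (log2 fold change 0.47, FDR = 0.148). Kcnc2, a fast delayed rectifier of neurons, passed the filter through the iSM KO libraries alone and stood at 0.328, 0.364 and 0.335 CPM and at 0.712, 0.688 and 1.23 CPM. Its log2 fold change was 1.34 (95% interval 0.53 to 2.15), and with an FDR of 0.0560 it lay just outside the threshold. Its highest value was that of iSM KO 3, and the other 2 iSM KO libraries were also above all controls. The neuronal genes Snap25 and Syt1 were highest in iSM KO 3 too, at 3.61 and 3.04 CPM against at most 1.68 and 1.05 CPM in the other libraries. The 8 neuronal markers together summed to 55.3 to 66.1 CPM in controls and to 45.5 to 55.1 CPM in the iSM KO libraries. Of these markers, 1 was higher (Tubb3) and 1 lower (Uchl1). Most of the sum was Uchl1, at 57.6, 48.0 and 51.8 CPM in Controls 1 to 3 and at 38.9, 36.7 and 37.7 CPM in iSM KO 1 to 3. The sum thus mainly follows Uchl1. Tubb3 and Nefl were also highest in iSM KO 3, while Stmn2, Uchl1, Nefm and Elavl4 were not. The part of the neuronal markers in the Kcnc2 value was not tested.

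Among the auxiliary members, Kcne4 was lower. It encodes a single-span subunit that binds Kcna and Kcnq pores. Kcne4 (ENSMUSG00000047330, chr1:78816758-78820028, plus strand) stood at 19.8 ± 0.168 CPM (SD, n = 3) in controls and at 13.9, 14.6 and 12.2 CPM in iSM KO 1 to 3. The controls were nearly equal, and all iSM KO libraries lay below them. It was 1.47-fold lower, with a log2 fold change of -0.55 (SE 0.10, 95% interval -0.77 to -0.33, FDR = 0.0106, edgeR), and passed the FDR in all 6 fits without one library. In a test against a fold change of 1.2, rather than against no change, its FDR was 0.0574. Kcnab1 stood at 127, 117 and 118 CPM and at 120, 117 and 107 CPM (log2 fold change -0.08, 95% interval -0.25 to 0.10). Kcnip1, a calcium-binding partner of Kcnd pores, stood at 0.776, 0.989 and 0.922 CPM and at 0.491, 0.430 and 0.383 CPM (log2 fold change -1.03, FDR = 0.0700). Kcnip1 overlaps Kcnmb1 on the opposite strand, and Kcnmb1 had 3006 to 5963 counts per library against 14 to 38 for Kcnip1, so part of the Kcnip1 counts may belong to Kcnmb1. Kcne3 passed the filter through the controls alone and stood at 0.537, 0.312 and 0.545 CPM and at 0.147, 0.0287 and 0.383 CPM (log2 fold change -1.27, 95% interval -2.72 to 0.17, FDR = 0.281).

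The tandem-pore channels, which carry background K+ current, had 4 members tested, and 2 of them were lower. Kcnk1 and Kcnk6 encode related weakly rectifying channels. Kcnk1 (ENSMUSG00000033998, chr8:125995170-126030685, plus strand) had 49, 42 and 37 counts in Controls 1 to 3 and 8, 8 and 16 in iSM KO 1 to 3, so that it passed the filter through the controls. In CPM these were 1.46, 1.09 and 1.55 and 0.196, 0.229 and 0.438. The groups lay apart although the counts were small, and the log2 fold change of -2.23 (SE 0.37, 95% interval -3.08 to -1.39, FDR = 0.00797, edgeR) stayed between -2.67 and -2.01 without each library, past the FDR in all 6 fits. Kcnk6 (ENSMUSG00000046410, chr7:29221926-29232515, minus strand) stood at 4.27, 4.27 and 5.41 CPM in controls and at 2.26, 1.86 and 2.63 CPM in iSM KO aortas. No iSM KO library reached the controls, and the log2 fold change was -1.04 (SE 0.20, 95% interval -1.49 to -0.59, FDR = 0.0145, edgeR). The FDR rose to 0.0553 without Control 3, 0.0569 without iSM KO 1 and 0.0737 without iSM KO 2. Kcnk3, an acid-sensitive background channel of arterial muscle, stood at 8.42, 9.94 and 14.1 CPM and at 13.03, 11.4 and 14.9 CPM (log2 fold change 0.29, 95% interval -0.14 to 0.71, FDR = 0.408). Kcnk7 stood at 0.806 to 1.56 CPM in controls and 0.958 to 1.64 CPM in iSM KO aortas (log2 fold change 0.16, FDR = 0.832).

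**Figure D3:**
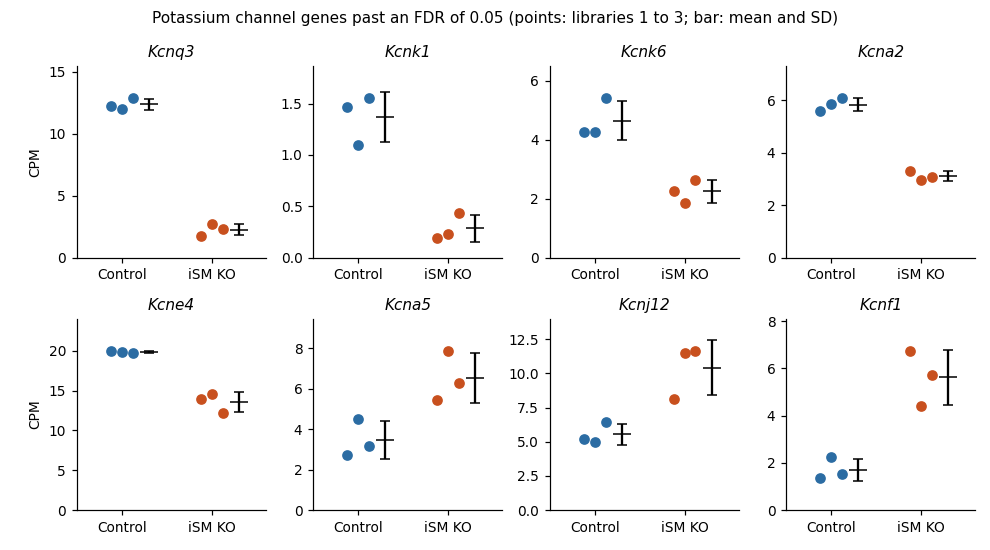
CPM of the 8 changed potassium channel genes in each library (points, libraries 1 to 3 of each group from left to right) with the mean and SD beside them, each panel starting at 0. In every panel the 3 Control points and the 3 iSM KO points do not overlap, and the widest gap relative to the level is that of Kcnq3, at 12.02 to 12.9 CPM against 1.79 to 2.69 CPM.

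Of the 7 inward rectifiers tested, Kcnj12 was higher and the others did not pass the FDR. Kcnj12 and Kcnj2 both encode strong inward rectifiers, which pass K+ near the resting potential. Kcnj12 (ENSMUSG00000042529, chr11:61022564-61071131, plus strand) stood at 5.19, 4.996 and 6.42 CPM in Controls 1 to 3 and at 8.12, 11.5 and 11.7 CPM in iSM KO 1 to 3. Every iSM KO library was above the controls, and the level was 1.89-fold higher, with a log2 fold change of 0.92 (SE 0.17, 95% interval 0.52 to 1.31, FDR = 0.0142, edgeR). The call held in 5 of 6 fits without one library, and the FDR was 0.0773 without iSM KO 2. Kcnj2 stood at 1.73, 2.26 and 1.17 CPM in controls and at 0.613, 0.659 and 1.26 CPM in iSM KO aortas, where iSM KO 3 overlapped the controls (log2 fold change -1.04, 95% interval -1.88 to -0.21, FDR = 0.135).

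The ATP-sensitive channel of arteries joins the Kcnj8 pore with the sulfonylurea receptor Abcc9. Kcnj8 stood at 39.1, 39.4 and 54.8 CPM in controls and at 38.4, 36.7 and 37.5 CPM in iSM KO aortas. The iSM KO values lay just below the lowest control, and the log2 fold change was -0.24 (95% interval -0.53 to 0.05, FDR = 0.309). Abcc9, singled out after its values were seen, stood at 434, 346 and 393 CPM and at 495, 517 and 480 CPM (log2 fold change 0.35, FDR = 0.0735). The summed pericyte markers stood at 2907 to 3685 CPM in controls and 3782 to 4509 CPM in iSM KO aortas. Nearly all of this sum was Rgs5 (mean 2250 and 2791 CPM) and Cspg4 (979 and 1238 CPM), neither past the FDR in edgeR. Both were higher at an unadjusted p under 0.05 in edgeR (0.0487 and 0.0145), without overlap of the groups. Of the 6 markers, 4 were tested and edgeR called 1 (Notch3) lower. DESeq2 called 1 higher and 1 lower, and limma-voom 0 and 1. Ndufa4l2 averaged 1.25 and 0.665 CPM. The part of these markers in the Abcc9 values was not tested. Abcc9 passed the FDR in DESeq2, at 0.0104, in edgeR with no filter on low counts, at 0.0387, and without Control 1, at 0.0336, and in none of the other 5 fits without one library. Kcnj11, the other ATP-sensitive pore, stood at 3.14 to 3.94 CPM and at 3.01 to 3.24 CPM (log2 fold change -0.14, FDR = 0.670). Kcnj15 stood at 62.1, 38.8 and 37.3 CPM and at 69.3, 67.1 and 60.3 CPM (log2 fold change 0.51, 95% interval 0.11 to 0.91, FDR = 0.134). Control 1 alone of the controls reached the iSM KO range, and without it the log2 fold change was 0.79 with an FDR of 0.00358. This was the 1 fit of 6 without one library in which Kcnj15 passed. Over the 6 the log2 fold change went down to 0.38 and the FDR up to 0.321.

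The BK channel of arterial smooth muscle is built from the Kcnma1 pore and the Kcnmb1 beta subunit, which raises its calcium sensitivity. Kcnma1 stood at 148, 138 and 146 CPM in Controls 1 to 3 and at 144, 148 and 134 CPM in iSM KO 1 to 3. The groups overlapped fully, and the log2 fold change was -0.02 (SE 0.08, 95% interval -0.19 to 0.15, FDR = 0.912, edgeR), with a sign that turned without Control 1 or iSM KO 3. Kcnmb1 stood at 161, 155 and 126 CPM and at 134, 130 and 127 CPM (log2 fold change -0.18, 95% interval -0.40 to 0.05, FDR = 0.336). Within a library, the ratio of Kcnmb1 to Kcnma1 counts was 1.02 ± 0.143 in controls and 0.919 ± 0.0361 in iSM KO aortas (SD, n = 3; two-sided exact permutation test, p = 0.4 over 20 splits, where the smallest p possible is 0.1).

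Kcnn3 and Kcnn4, small- and intermediate-conductance calcium-activated channels known from endothelium, varied between the libraries of each group and did not pass the FDR. Kcnn3 stood at 11.2, 13.01 and 6.29 CPM in Controls 1 to 3 and at 4.61, 6.08 and 9.66 CPM in iSM KO 1 to 3 (log2 fold change -0.60, 95% interval -1.30 to 0.10, FDR = 0.298). Kcnn4 stood at 5.07, 7.05 and 3.94 CPM and at 2.16, 2.26 and 4.19 CPM (log2 fold change -0.91, 95% interval -1.59 to -0.23, FDR = 0.115). Without iSM KO 3 it passed the FDR at 0.0292, and DESeq2 gave 0.0313. That was the 1 fit of 6 without one library in which Kcnn4 passed, and the FDR reached 0.334 among them. Over the 6 libraries, the order of Kcnn3, of Kcnn4 and of Kcnj2 was that of the summed endothelial markers, from Control 2 and Control 1 through iSM KO 3, Control 3 and iSM KO 2 to iSM KO 1. This order is a description of 6 libraries, and the part of the endothelial share in these 3 differences was not tested. Kcnt2, a sodium-activated channel, stood at 16.03, 10.96 and 11.95 CPM and at 8.98, 7.19 and 9.97 CPM (log2 fold change -0.57, FDR = 0.0854), and Kcnn1 and Kcnt1 had an FDR of 0.516 and 0.612.

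**Figure D4:**
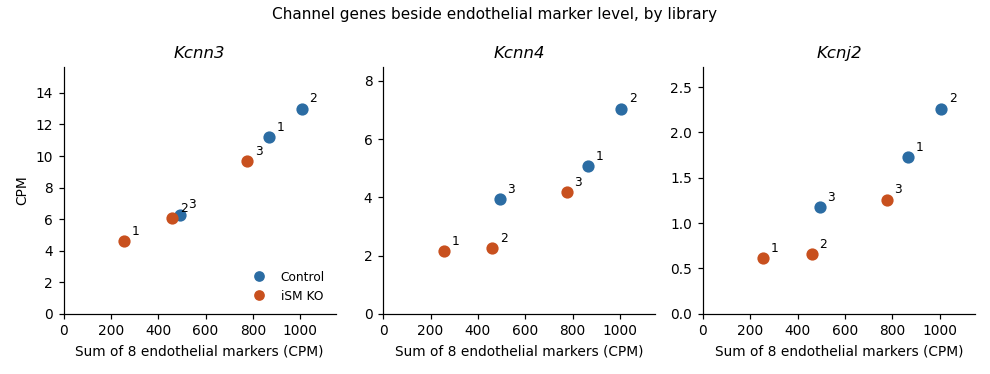
CPM of Kcnn3, Kcnn4 and Kcnj2 against the summed CPM of 8 endothelial markers, one point per library with its number (blue, Control; orange, iSM KO). In each panel the libraries keep one order on both axes, from iSM KO 1 at 255 CPM of endothelial markers to Control 2 at 1006 CPM.

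At the threshold, Kcna5 was the member just inside (FDR = 0.0425), and Kcnc2, Kcna6 and Kcnip1 were those just outside (FDR = 0.0560, 0.0629 and 0.0700). A log2 fold change beyond 1 in size without passing the FDR was seen for Kcna6, Kcnc2, Kcnip1, Kcne3 and Kcnj2. At an unadjusted p under 0.05, 20 of the 45 members (44.4%) and 22.1% of all genes tested would be counted. Limma-voom called 9 members and 7.51% of all genes tested, and the edgeR test against a fold change of 1.2 called 6 members and 3.66% of genes. DESeq2 called 13 members, where it called 10.3% of all genes tested, and edgeR with no filter on low counts called 15 of the 91 members with a count, where it called 5.79% of genes. Of the members named, Kcnk1, Kcna6, Kcnd3, Kcnk3, Kcnj15 and Kcnma1 held values that were not whole numbers in the deposited table, and the handling of ambiguous reads is not given in the sources used here.

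**Figure D5:**
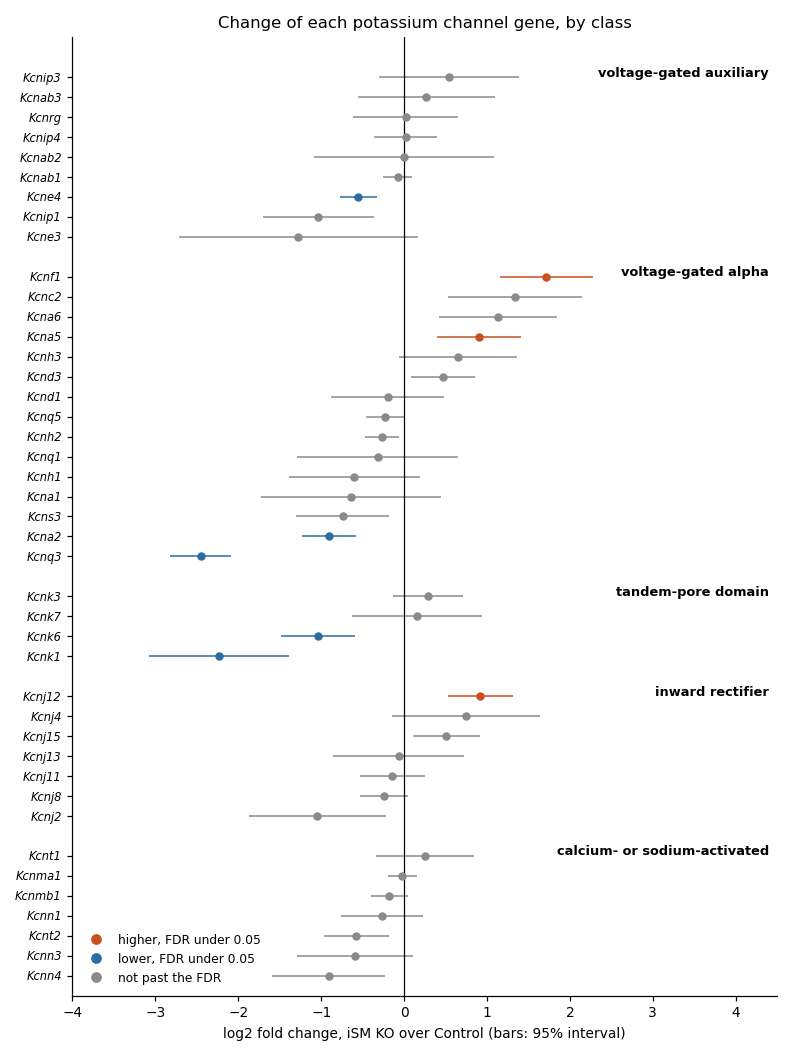
Log2 fold change of iSM KO over Control for 42 of the 45 tested members, each with its 95% interval, grouped by class and coloured where the FDR is under 0.05 (orange, higher; blue, lower). Kcnq3 at -2.45 and Kcnf1 at 1.72 lie at the ends of the voltage-gated alpha subunits, while Kcnma1 and Kcnab1 have narrow intervals across 0.

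The proteins that assemble with or anchor potassium channels were read from a list of 19 genes outside the Kcn names, of which 15 were tested. Of these, 4 were higher and 0 lower (7 and 0 at an unadjusted p under 0.05, 5 and 0 in DESeq2, 4 and 0 in limma-voom), with a median log2 fold change of 0.24 beside -0.01 over all genes tested. In this fit edgeR gave 4.26% of all genes as higher. Dpp10, an auxiliary subunit of Kcnd channels, stood at 13.7, 5.26 and 5.33 CPM in Controls 1 to 3 and at 33.1, 35.0 and 42.5 CPM in iSM KO 1 to 3. It was 4.52-fold higher (log2 fold change 2.18, SE 0.33, FDR = 0.0054, edgeR), and Control 1 was high among the controls. Lrrc38, a leucine-rich repeat protein that acts as a BK gamma subunit, passed the count filter through the iSM KO libraries alone. Its level was 0.119, 0.182 and 0.168 CPM in controls and 0.982, 1.15 and 1.72 CPM in iSM KO aortas (log2 fold change 3.01, SE 0.39, FDR = 0.0024, edgeR). Both passed the FDR in all 6 fits without one library. Akap5, which anchors kinases and calcineurin beside ion channels, stood at 5.20 ± 0.922 CPM in controls and at 9.68 ± 1.14 CPM in iSM KO aortas (SD, n = 3), without overlap (log2 fold change 0.89, FDR = 0.0118), and its FDR was 0.0564 without iSM KO 1 and 0.0627 without iSM KO 2. Slc5a3, a myo-inositol transporter that associates with Kcnq channels, stood at 27.1, 28.6 and 27.7 CPM and at 37.3, 35.6 and 33.4 CPM (log2 fold change 0.35, FDR = 0.0307). It lost the threshold in 4 of 6 such fits, with an FDR of 0.0729 without Control 1, 0.0687 without Control 3, 0.133 without iSM KO 1 and 0.145 without iSM KO 2.

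Of the 48 members under the filter, 36 had no count over 10 in any library and the highest count of any was 21. Kcna10 and Kcne1 had a count of 0 in every library. These genes were not tested in the comparison above. Among the 46 with a count, the highest CPM lay in iSM KO 3 for 19 and in each of the other libraries for 3 to 8. The 45 tested members comprised 38 that passed the filter in both groups, 3 that passed in controls only (Kcna1, Kcne3 and Kcnk1) and 4 that passed in iSM KO only (Kcnab3, Kcnc2, Kcnj13 and Kcnj4).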

How the data were processed

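Bulk RNA-seq of ribosomal RNA-depleted total RNA from aortas of 3 control and 3 iSM KO male mice was used, each library from a separate mouse. Per the study's methods and the submitters' processing notes (bcl2fastq, DRAGEN, mm10; versions not given in the sources used here), paired-end reads of 150 bases were mapped and quantified against Ensembl release 101. The authors deposited an estimated count per gene and library, not normalized, and 10.9% to 12.2% of values per library were not whole numbers. Whether the counting used strand is not given in the sources used here.

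Counts were rounded, and genes with a count over 10 in all libraries of at least 1 group were kept (16565 of 55487). edgeR 4.0.16 (R 4.3.3; TMM, glmQLFit, glmQLFTest, all 6 libraries, no covariates) tested all of them with Benjamini-Hochberg adjustment, after the step was tested on simulated data. Intervals follow the quasi-likelihood degrees of freedom. Levels per kb use the longest GENCODE M21 transcript (GRCm38). Library totals were 24911609 to 40460467, and no pair of libraries agreed within sampling noise. The alternatives used DESeq2 1.42.0, limma 3.58.1 (voom), DESeq2's size factors, protein-coding genes only, no filter, filterByExpr, a replicate block, glmTreat, a fold change over 2 and each library left out. The BK ratio was tested with SciPy 1.17.1.

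Members and lists were chosen with earlier results of these data known. Named were members past the FDR, tested Kcnq genes, vascular members, the 2 highest of each class, members with a log2 fold change beyond 1 in size, Prdm16 and partners past the FDR. Kcna1, Kcnd3, Kcns3, Kcnt2, Kcnn1, Kcnt1, Kcng1, Abcc9 and the genes named under other observations were singled out after their values were seen. Some results are not reported here.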

Additional observations from a re-analysis of the deposited data

Results flagged for a closer look

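Kcng1, which encodes an electrically silent alpha subunit like Kcnf1, lay under the count filter and was outside the main comparison. It had 0 counts in each of the 3 Control libraries and 8, 6 and 6 counts in iSM KO 1 to 3, a sum of 20, and was flagged because a signal in genes left out of the test stood above the controls. Against a floor of 3 counts over the controls together, it was 5.69-fold higher in iSM KO aortas, with the iSM KO counts taken as they stand. With no filter on low counts, edgeR gave it an FDR of 0.0349. The counts are small, and the gene was chosen after its values were seen. The floor allows for counting error in the controls alone and not for spread between mice, so the ratio is not a lower bound.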

How the results depend on the processing

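The 8 changed members were also past the FDR in DESeq2, limma-voom, edgeR with DESeq2's size factors, protein-coding genes only, no filter and filterByExpr. Their number was 13 in DESeq2, which added Kcna6, Kcnj15, Kcnn4, Kcns3 and Kcnt2 (10.3% of all genes tested), 15 with no filter, which also added Kcnd3 and Kcng1 (5.79% of all genes tested), and 4 with a fold change over 2. It was 9 in limma-voom (7.51% of all genes tested) and 6 (3.66%) in the test against a fold change of 1.2, which lost Kcna5 and Kcne4. Without 1 library it ranged from 5 to 9, with 5 without iSM KO 2, where Kcna5, Kcnj12 and Kcnk6 were lost. Calls over all genes tested moved too, from 516 of 16883 without iSM KO 2 to 1402 of 16667 without Control 2, beside 1252 of 16565 in the main fit. The partner list held 2 to 4 genes past the FDR without 1 library, and the list of other membrane potential genes 2 to 5. Signs turned without 1 library for 2 members that were not called, Kcnma1 (range -0.052 to 0.017, with 0.0073 without Control 1 and 0.017 without iSM KO 3) and Kcnq1 (range -0.59 to 0.040, with 0.040 without Control 2 and 0.032 without iSM KO 1). The cause of these shifts was not tested. Over the 28 named members, 367 alternative values kept direction and side of the threshold, 10 passed it newly, 11 lost it and 4 changed sign.

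Replicate numbers gave no sign of pairing: the deviations of same-numbered libraries correlated at -0.13, -0.05 and -0.11. These correlations cannot exclude a pairing of the mice, and the labels give replicate numbers alone. With a replicate block, 9 members passed the FDR, the 8 and Kcnd3, where 775 of all 16565 genes tested passed it. Low counts limit the precision for members near the filter, such as Kcnk1, Kcne3 and Kcnc2, and the 48 members under it were left out of the reported test.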

Other observations

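Other genes that set or read the membrane potential of VSMCs were described from a list of 18 channels, exchangers and pumps outside the Kcn names, all of which were tested. By edgeR's FDR, 3 of them rose and 0 fell, where 4.26% of all genes tested were higher and 3.30% lower (in the list, 6 and 1 at an unadjusted p under 0.05, 4 and 0 in DESeq2 and in limma-voom), and the median log2 fold change was -0.04. Ano1, the calcium-activated chloride channel of arterial muscle, stood at 108, 121 and 91.9 CPM in Controls 1 to 3 and at 160, 162 and 153 CPM in iSM KO 1 to 3 (log2 fold change 0.56, FDR = 0.0124). Its FDR reached 0.0700 without 1 of the iSM KO libraries, and it lost the threshold without iSM KO 1 or iSM KO 2. Trpv2, a cation channel, stood at 17.9, 20.7 and 21.4 CPM and at 33.5, 36.2 and 31.3 CPM (log2 fold change 0.75, FDR = 0.0026). Atp1b2, a beta subunit of the sodium pump, stood at 97.5, 82.2 and 79.1 CPM and at 131, 137 and 149 CPM (log2 fold change 0.69, FDR = 0.0039). Trpv2 and Atp1b2 passed the FDR in all 6 fits without one library.

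Of the 5 non-coding genes with Kcn symbols, 2 were tested. Kcnq1ot1 stood at 92.3, 103 and 92.0 CPM in controls and at 110, 110 and 100.7 CPM in iSM KO aortas (log2 fold change 0.16, FDR = 0.298), and Kcnd3os had 7 to 18 counts per library (log2 fold change 0.13, FDR = 0.901).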
